A study of Mus musculus with 6 samples.

Results

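The Toll-like receptor genes Tlr1, Tlr2, Tlr3, Tlr4, Tlr6, Tlr7, Tlr8, Tlr9 and Tlr13, and Unc93b1, the gene of their trafficking protein, were followed in mouse RAW264.7 cells. These 10 genes were taken by symbol from the 56636 genes of the deposited expression table, and each symbol matched 1 row. No cut on their values was applied, but the genes were chosen with earlier results of these data known. RAW264.7 is a macrophage-like line established from a virus-induced mouse tumour. All 6 bulk RNA libraries came from wild-type RAW264.7 cells, 3 given vehicle and 3 given an agent abbreviated as 25-HC, each for 24 h. The labels spell out neither the agent nor its dose, and they do not say whether the libraries came from separate cultures, so any p-value covers the spread among libraries alone, and that spread may be technical. The title of the series places the experiment in work on cholesterol homeostasis and metastasis. Values are TPM, the usual length-scaled unit of transcript abundance scaled to 1 library total, so sequencing depth is unknown.

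Toll-like receptors are membrane proteins that bind microbial molecules through a leucine-rich outer domain and signal through a cytoplasmic TIR domain. Those at the cell surface mainly detect lipids and lipoproteins of bacteria, while those in endosomes detect nucleic acids after uptake. The endosomal receptors leave the endoplasmic reticulum bound to Unc93b1, and macrophages express members of both classes. In bulk RNA, fewer cells expressing a gene and less of its RNA per cell cannot be told apart.

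Windows upstream of the transcription start were listed for 7 of the 10 genes in RefSeq (build GRCm38.p6, which is not the GRCm39 build of the expression table). The 250 bases before each listed start were searched on both strands for GAGGAA, the core of the site of PU.1, the lineage factor of macrophages. It was found in 23.25% of 32851 windows of all genes. The 7 genes had 9 windows, and 4 of the 9 held it, 1 each for Tlr1, Tlr8, Tlr9 and Tlr13. For Tlr1, however, the 208 bases of that window upstream of every annotated transcript of the gene held no core. Below are the endosomal receptors that hold the PU.1 core, because their transcripts behaved in 3 different ways in these libraries. They are shown 5′ to 3′ on the strand of the gene, limited to bases upstream of every annotated transcript of the gene, with the PU.1 core in capitals (in Tlr8 it lies on the opposite strand).
Tlr9, plus strand, chr9:106222348-106222597: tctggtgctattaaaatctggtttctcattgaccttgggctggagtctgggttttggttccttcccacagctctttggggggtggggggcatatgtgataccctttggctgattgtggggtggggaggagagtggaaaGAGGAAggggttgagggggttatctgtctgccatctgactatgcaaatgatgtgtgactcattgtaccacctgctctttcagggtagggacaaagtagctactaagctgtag
Tlr13, plus strand, chrX:106143025-106143203: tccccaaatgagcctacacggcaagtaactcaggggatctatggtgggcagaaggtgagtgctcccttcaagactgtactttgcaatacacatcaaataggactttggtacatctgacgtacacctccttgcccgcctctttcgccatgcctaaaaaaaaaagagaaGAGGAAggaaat
Tlr8, minus strand, chrX:167264330-167264579: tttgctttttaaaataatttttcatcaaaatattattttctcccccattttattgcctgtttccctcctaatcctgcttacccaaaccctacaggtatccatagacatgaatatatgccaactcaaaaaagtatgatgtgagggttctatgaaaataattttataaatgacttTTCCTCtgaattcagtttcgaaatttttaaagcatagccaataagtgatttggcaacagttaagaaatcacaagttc
Tlr13 was above the vehicle range in all 3 treated libraries, Tlr9 was as high in 1 vehicle library as under 25-HC, and Tlr8 was listed at 0 throughout, as the values below show. A motif match is a description of these letters and not a bound site. Spi1, which encodes PU.1, was at 240.5, 134 and 231 TPM in vehicle libraries 1 to 3, compared with 194, 205 and 201 TPM across the treated ones, so its groups overlapped as deposited. After median-ratio rescaling (below) each treated library was under each vehicle library, as for 17.9% of all tested genes. The Spi1 groups were also apart downward after correction for transcript length, but they overlapped after quantile normalization.

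The vehicle libraries were uneven. Vehicle 1, 2 and 3 had 11238, 9492 and 11994 genes at 1 TPM or more and the treated libraries 11971 to 12005, and the tested genes had a median of 9.24, 4.07 and 14.1 TPM in the vehicle libraries against 13.15 to 13.5 TPM under 25-HC. Genes averaging 1 TPM or more over the 6 libraries (12092) were tested with limma on log2(TPM + 1). Across them the median log2 difference, 25-HC minus vehicle, was 0.52, and 1 gene (0.00827%) had an adjusted p under 0.05 upward. The shift of 0.52 fell to 0.0085 after median-ratio rescaling, which divides each library by 1 factor, and each gene's difference should be read against it. Without vehicle 2 the shift was 0.13, without vehicle 1 it was 0.60 and without vehicle 3 it was 0.81. Transcripts of RAW264.7 macrophages were present: Cd68, a lysosomal marker of macrophages, stood between 798 and 836 TPM in all 6 libraries. Other macrophage markers were less even. Vehicle 3 exceeded vehicle 2 by a ratio of 96.1 for Itgam, 10.4 for Adgre1 and 6.4 for Csf1r. The same ratio was 1.77 for Lyz2, 1.73 for Spi1, 1.41 for Fcgr1 and 0.993 for Cd68. The Itgam ratio is imprecise, since it rests on 0.53 TPM in vehicle 2.

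The 4 genes Tlr1, Tlr2, Tlr4 and Tlr13 had every 25-HC library above all 3 vehicle libraries. This is 4 of all 10 genes, or 4 of the 8 that were tested, beside 22.6% of all tested genes separated in that direction. None of the 10 was lower in each 25-HC library, beside 8.1% of all tested genes. After median-ratio rescaling the same 4 and Unc93b1 were separated upward and none downward, beside 18.7% and 17.9% of all tested genes. None passed limma with Benjamini-Hochberg adjustment over all genes (adjusted p = 0.389 for Tlr1, Tlr2, Tlr4, Tlr6, Tlr9 and Tlr13, 0.393 for Unc93b1 and 0.572 for Tlr7). Tlr1, Tlr2, Tlr4 and Tlr13 had an unadjusted limma p under 0.05, as did 8.24% of all tested genes in the upward direction.

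**Figure D1:**
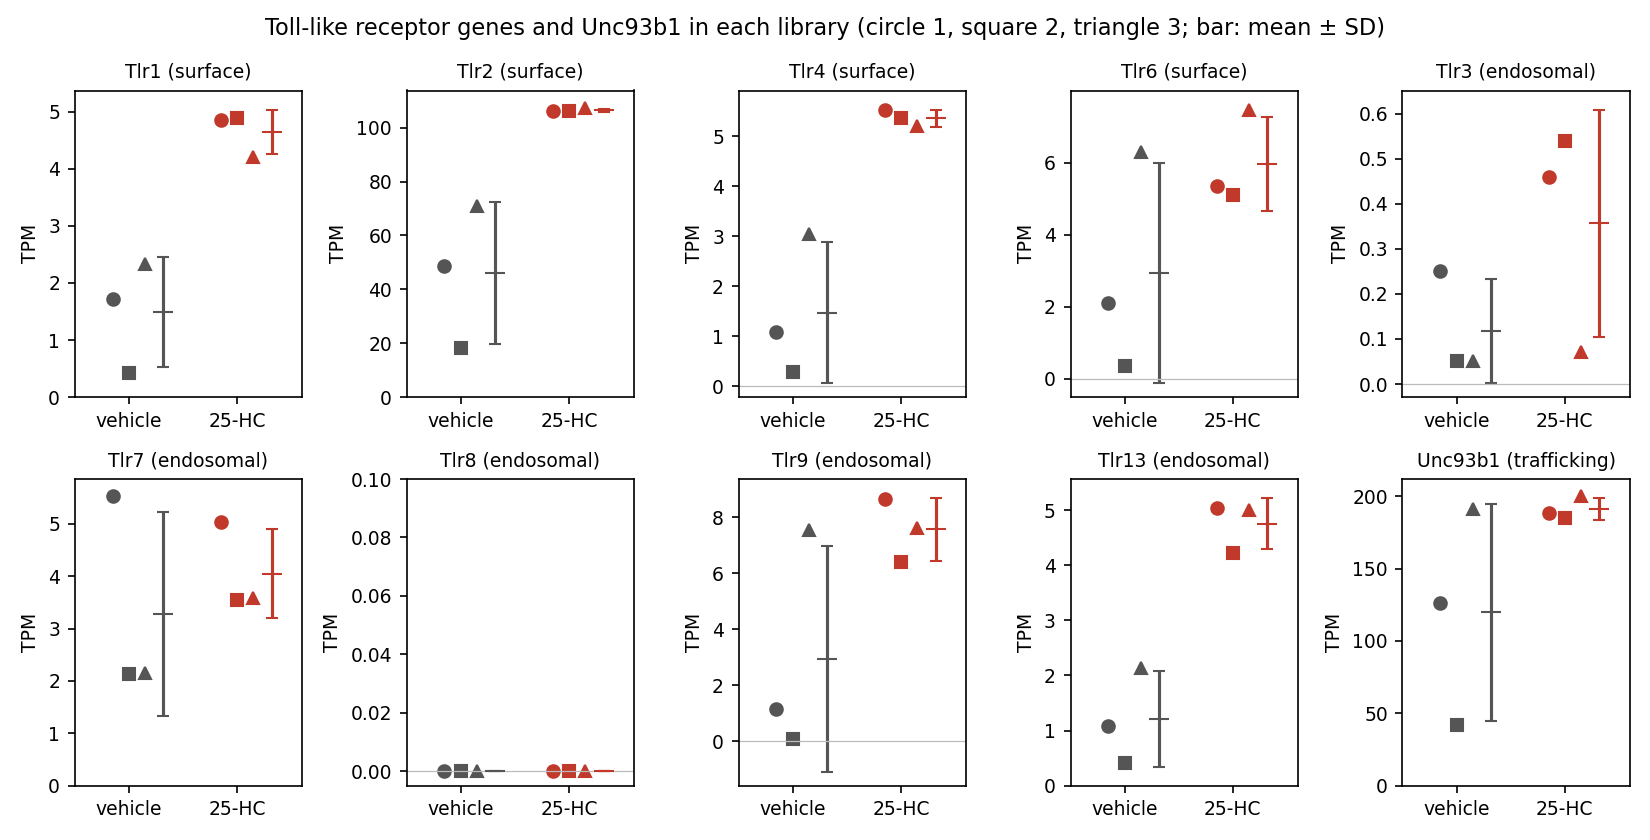
TPM (vertical axes, 1 scale per gene) of the 10 genes in 3 vehicle (grey) and 3 25-HC libraries (red), with circles, squares and triangles for libraries 1, 2 and 3 and bars for the mean ± SD. Tlr1, Tlr2, Tlr4 and Tlr13 show no overlap between groups, while the triangle of vehicle 3 lies among the treated libraries for Tlr6, Tlr9 and Unc93b1.

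Among the surface receptors, Tlr2, which pairs with Tlr1 or Tlr6 to bind bacterial lipopeptides, was by far the most abundant. It stood at 48.6, 18.3 and 71.0 TPM in vehicle libraries 1 to 3, compared with 106, 106 and 107 TPM with 25-HC. The treated libraries lay close together, and each lay above the highest vehicle library, vehicle 3. The group means were 46.0 ± 26.4 TPM across the vehicle libraries, against 106.5 ± 0.531 TPM across the treated ones (SD, n = 3 each), a 2.32-fold difference, and 25-HC was 1.50-fold above vehicle 3 alone. On the log2(TPM + 1) scale, on which differences of genes with low TPM are understated, Tlr2 differed by 1.39 (SE 0.49) as deposited and by 0.77 after median-ratio rescaling, with the groups still apart.

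Tlr4, the receptor for bacterial lipopolysaccharide, had vehicle values at 1.09, 0.29 and 3.05 TPM and treated values at 5.53, 5.36 and 5.20 TPM. Each treated library was above vehicle 3 and the mean was 1.76-fold above it. The log2 difference was 1.52 (SE 0.45), the largest among the surface receptors as deposited. Tlr1, the partner of Tlr2 for triacylated lipopeptides, was at 1.71, 0.43 and 2.33 TPM with vehicle, compared with 4.86, 4.88 and 4.20 TPM with 25-HC, again without overlap and 1.99-fold above vehicle 3. Its log2 difference was 1.27 (SE 0.38).

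Tlr6, the partner of Tlr2 for diacylated lipopeptides, had overlapping groups, unlike Tlr1, Tlr2 and Tlr4. It was at 2.10, 0.37 and 6.30 TPM across the vehicle libraries, against 5.34, 5.09 and 7.46 TPM across the treated ones, so that vehicle 3 was above 2 of the 3 treated libraries. The log2 difference of 1.13 (SE 0.62) turned to -0.084 against vehicle 3 alone. Tlr1 and Tlr6 are neighbouring genes with related sequences, and reads shared between them could have been divided either way by the authors' quantification. The ratio of Tlr1 to Tlr6 TPM was 0.814, 1.16 and 0.37 in the vehicle libraries and 0.910, 0.959 and 0.563 under 25-HC, overlapping (exact two-sided permutation p = 1.0, n = 3 each).

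Of the endosomal receptors, Tlr13, which detects bacterial ribosomal RNA, was the 1 that separated. It was at 1.08, 0.42 and 2.13 TPM with vehicle, compared with 5.04, 4.23 and 5.00 TPM with 25-HC. Every treated value was above every vehicle value, with a 3.93-fold ratio of means and a 2.23-fold ratio to vehicle 3. Its log2 difference of 1.45 (SE 0.36) had the smallest unadjusted limma p of the 10 genes (0.00598, adjusted p = 0.389).

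Tlr9, which detects unmethylated CpG DNA, had the widest ratio between vehicle libraries, at 1.15, 0.09 and 7.55 TPM. Under 25-HC it was at 8.66, 6.41 and 7.63 TPM, so that vehicle 3 lay inside the treated range. The ratio of vehicle 3 to vehicle 2 was 83.9 for Tlr9, a figure that rests on the 0.09 TPM of vehicle 2 and is imprecise. It was 4.6 for Unc93b1 against 1.01 for Tlr7, so the vehicle libraries did not differ by 1 common factor over these genes. The log2 difference of Tlr9, 1.65 (SE 0.74), was the largest of the 8 tested genes as deposited and was -0.0056 against vehicle 3 alone.

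Tlr7, a receptor for single-stranded RNA, was highest in a vehicle library. Vehicle 1 stood at 5.53 TPM, with vehicle 2 and 3 at 2.14 and 2.16 TPM and the treated libraries at 5.03, 3.54 and 3.58 TPM. The groups overlapped through vehicle 1 only. The log2 difference of 0.32 (SE 0.39) as deposited became -0.19 after median-ratio rescaling, -0.36 after quantile normalization and -0.36 after correction for transcript length, so these data give Tlr7 no direction.

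Tlr3, which detects viral RNA duplexes, was near the lower end of the scale, with 0.25, 0.05 and 0.05 TPM across the vehicle libraries, against 0.46, 0.54 and 0.07 TPM across the treated ones. It was below the filter of 1 TPM, and 25-HC 3 was level with the low vehicle libraries. Tlr8, the neighbour of Tlr7 on the X chromosome, was listed at 0 TPM in all 6 libraries. The remaining mouse receptors of the family, Tlr5, Tlr11 and Tlr12, were also listed at 0 in all 6.

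Unc93b1, the carrier of the endosomal receptors, was the most abundant of the 10 transcripts in each library. It was at 126, 41.7 and 191 TPM with vehicle, compared with 189, 185.3 and 199.9 TPM with 25-HC. Vehicle 3 lay within the treated range, and the treated mean was 0.999-fold that of vehicle 3. The log2 difference was 0.92 (SE 0.55) as deposited and 0.29 after median-ratio rescaling, where the groups came apart with 130, 102 and 145 in vehicle and 149, 149 and 159 in 25-HC (rescaled TPM). By a root mean square distance between centred log2(TPM + 1) values over the 6 libraries, the genes closest to Unc93b1 among 8441 others were Pwp1 (0.034), Etfbkmt (0.035) and Slc10a3 (0.036). Pwp1 was at 27.0, 8.29 and 43.7 TPM across the vehicle libraries, against 42.5, 41.2 and 43.3 TPM across the treated ones.

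The order of receptor levels, compared per length as TPM, also differed among libraries. Tlr2 came first in all 6. Tlr7 came second in vehicle 1 and 2, whereas Tlr9 came second in vehicle 3 and in the 3 treated libraries. Under 25-HC the means ran from Tlr2 through Tlr9 (7.57 ± 1.13 TPM, SD, n = 3), Tlr6 (5.96 ± 1.30), Tlr4 (5.36 ± 0.165), Tlr13 (4.76 ± 0.457), Tlr1 (4.65 ± 0.387) and Tlr7 (4.05 ± 0.849) to Tlr3 (0.357 ± 0.252). Ranges of neighbours in this order overlapped, except between Tlr2 and Tlr9, between Tlr4 and Tlr13 and between Tlr7 and Tlr3.

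Balances between classes were computed within each library, since a ratio inside a library does not move with its overall scaling. Summed surface receptors were at 53.5, 19.4 and 82.6 TPM with vehicle, compared with 122, 121 and 124 TPM with 25-HC. Summed endosomal receptors were at 8.01, 2.70 and 11.9 TPM across the vehicle libraries, against 19.2, 14.7 and 16.3 TPM across the treated ones. The endosomal share of the total was 13.02%, 12.2% and 12.6% in vehicle and 13.6%, 10.8% and 11.6% in 25-HC. These shares overlapped, with a log2 ratio of endosomal to surface receptors that differed by -0.086 (exact two-sided permutation p = 0.5, n = 3 each, where 0.1 is the smallest p this design allows). It was -0.40 after correction for transcript length (exact permutation p = 0.2), -0.59 with receptor log2 values averaged (exact permutation p = 0.2) and -0.62 with Tlr2 left out of the surface sum (exact permutation p = 0.2), so its size depends on these choices. Tlr2 set most of that ratio, at 75.07% to 82.9% of the receptor total in vehicle and 75.3% to 77.9% in 25-HC.

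Inside the total, the shares of Tlr1, Tlr4 and Tlr13 were higher in each treated library. Tlr4 took 1.31% to 3.23% of it in vehicle and 3.71% to 3.94% in 25-HC. Tlr13 took 1.76% to 2.25% and 3.11% to 3.57%, and Tlr1 took 1.94% to 2.78% and 2.995% to 3.59%. Each of these comparisons had the smallest exact two-sided permutation p that 3 against 3 allows, 0.1 (9 receptor shares compared, none adjusted). Tlr7 took 8.99%, 9.68% and 2.29% in vehicle 1, 2 and 3 and 2.55% to 3.56% in 25-HC, overlapping through vehicle 3. These shares are of deposited TPM and were not recomputed after correction for transcript length. The longest transcripts of Tlr4 and Tlr13 (4077 and 4060 bases) exceed that of Tlr2 (3014 bases), and vehicle values moved with length (below).

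Unc93b1 per endosomal receptor transcript lay lower in each 25-HC library than in any vehicle library, on deposited TPM. The ratio of Unc93b1 TPM to summed endosomal TPM was 15.8, 15.4 and 16.1 in vehicle 1, 2 and 3 and 9.83, 12.6 and 12.3 in 25-HC. The vehicle ratios lay close together although different receptors made up the endosomal sum. Its largest part was Tlr7 in vehicle 1 and 2 (5.53 and 2.14 TPM) and Tlr9 in vehicle 3 (7.55 TPM). On the log2 scale the difference in the ratio of Unc93b1 to endosomal receptors was -0.46 (exact two-sided permutation p = 0.1, n = 3 each, the smallest possible). It was -0.49 against vehicle 3 alone, but it turned to 0.035 after correction for transcript length and to 0.18 when receptor log2 values were averaged in place of summed TPM, so its direction depends on these choices.

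**Figure D2:**
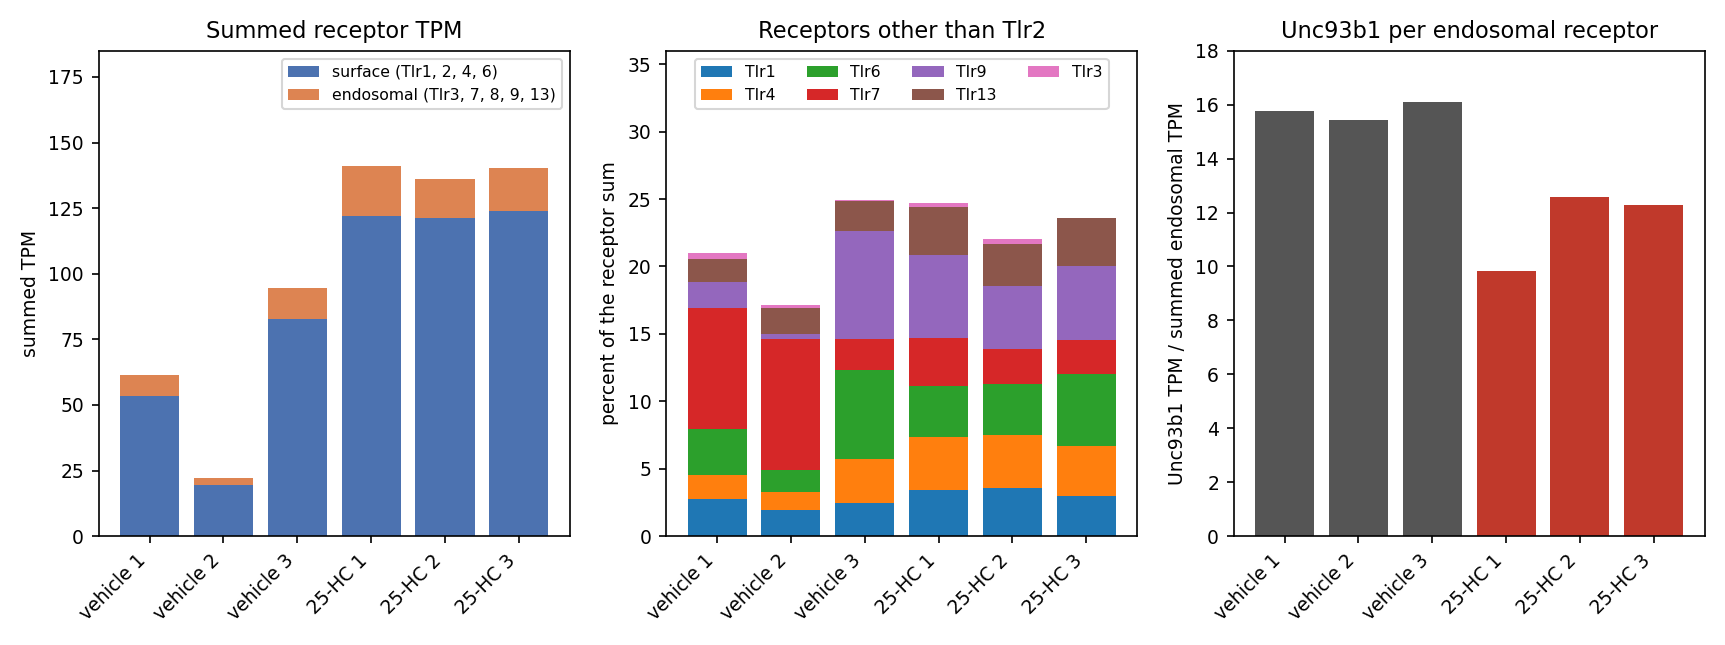
Summed TPM of surface and endosomal receptors (left), each receptor other than Tlr2 as a percent of the receptor sum (middle) and Unc93b1 TPM divided by summed endosomal TPM (right), for each of the 6 libraries. The Tlr7 share is large in vehicle 1 and 2 only, and the right panel runs from 15.4 to 16.1 in vehicle and 9.83 to 12.6 in 25-HC.

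Transcript length moved with the vehicle values. Taken as vehicle minus the 25-HC mean, the median gene of the shortest sixth differed by 0.18 in vehicle 1 and -0.051 in vehicle 2 (log2), and that of the longest sixth by -0.78 and -1.63, whereas vehicle 3 ranged from 0.039 to 0.094 over the sixths. The longest annotated transcripts of the 8 tested genes, 2266 to 4077 bases, fell in sixths 3 to 5. Of the 8 tested genes, 7 were below the median of their own sixth in all 3 vehicle libraries, beside 24.96% of all genes with a length, and the exception was Tlr7. In vehicle 3 the gap was under 0.1 for Tlr6, Tlr9 and Unc93b1. In the same library Tlr2 differed by -0.58 and Tlr13 by -0.88 while the medians of their sixths were 0.094 and 0.076. Tlr7 was above its sixth in vehicle 1 and 2, at 0.38 against -0.48 and at -0.67 against -1.54, and below it in vehicle 3.

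**Figure D3:**
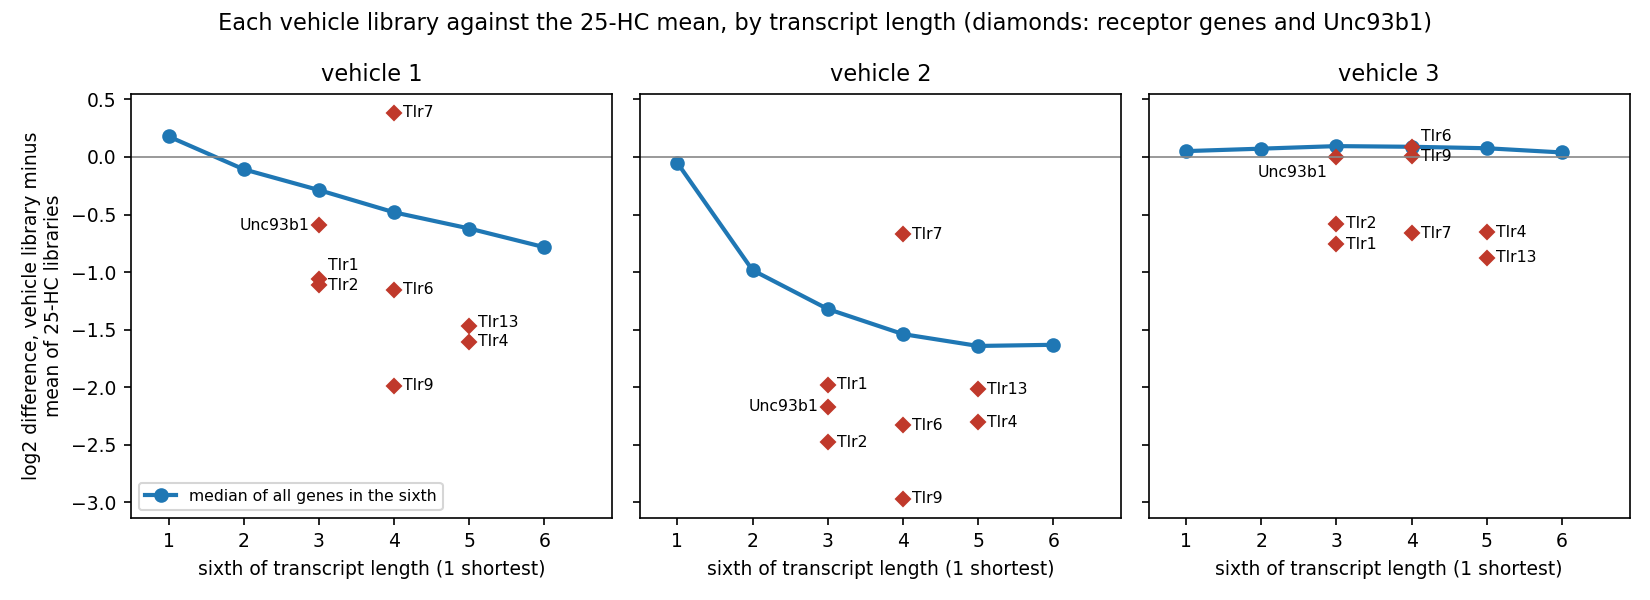
Log2 difference between each vehicle library and the mean of the 25-HC libraries (vertical axis), by sixth of transcript length (horizontal axis), as the median of all genes (blue) and for the 8 tested genes (red diamonds). In vehicle 3 the blue line is level near 0, with Tlr1, Tlr2, Tlr4, Tlr7 and Tlr13 below it and Tlr6, Tlr9 and Unc93b1 close to it.

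After a length trend was subtracted from each library, Tlr1, Tlr2, Tlr4, Tlr13 and Unc93b1 were separated upward, beside 17.1% of all genes with a length. The log2 differences were then 0.69 for Tlr1, 0.81 for Tlr2, 0.83 for Tlr4, 0.77 for Tlr13 and 0.46 for Unc93b1, with limma adjusted p from 0.141 to 0.336 for these 5 genes. Against vehicle 3 alone, 5 of the 8 tested genes, Tlr1, Tlr2, Tlr4, Tlr7 and Tlr13, were higher in each 25-HC library, beside 28.5% of all tested genes, and none was lower in each, beside 45.7%. In that comparison, in which the lone vehicle library is assumed to vary like the treated ones, limma adjusted p was 0.015 for Tlr2 (log2 difference 0.58, higher in 3 of 3 treated libraries), 0.0424 for Tlr4 (0.65), 0.0493 for Tlr13 (0.88), 0.053 for Tlr1 (0.76) and 0.1515 for Tlr7 (0.66). By the same rule 4.52% of all tested genes were higher and 6.33% lower. Without vehicle 3, when Tlr4, Tlr9 and Tlr13 passed limma, 5.55% of all tested genes were higher.

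**Figure D4:**
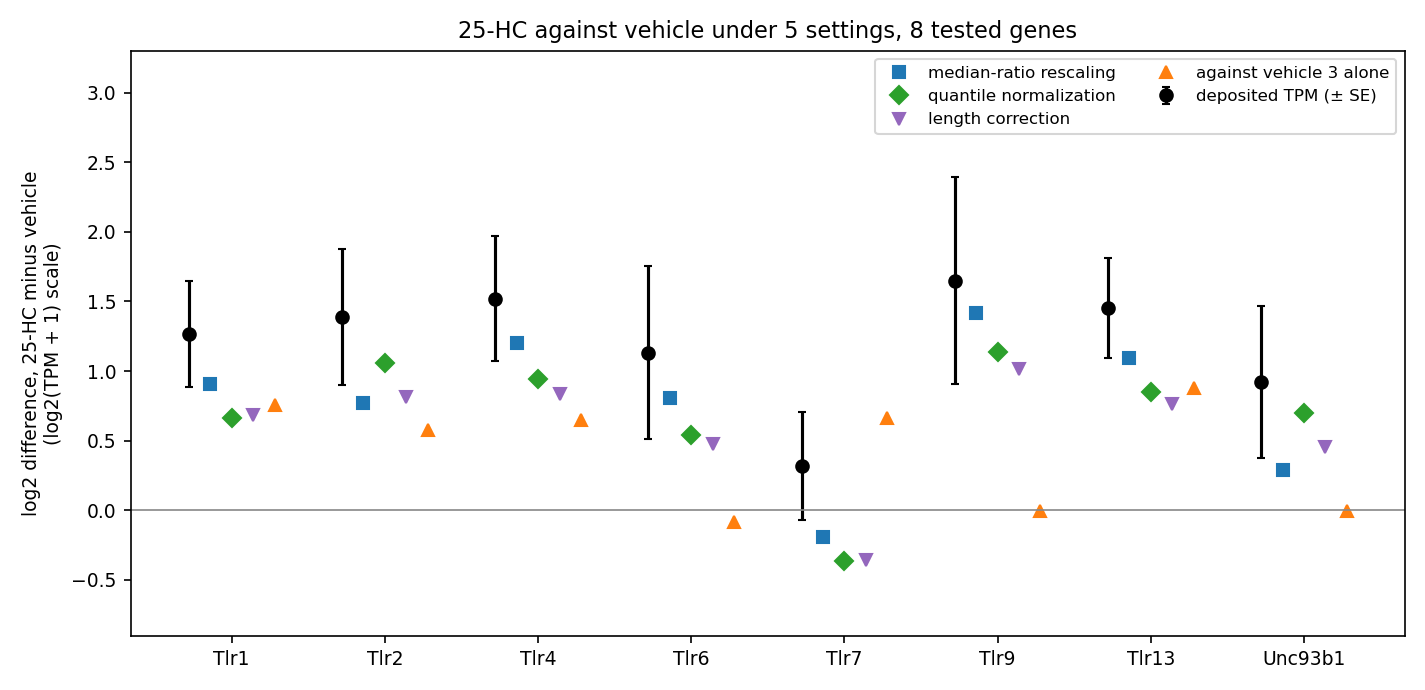
Log2 difference between 25-HC and vehicle (vertical axis, log2(TPM + 1) scale) for the 8 tested genes, as deposited with the limma standard error and under 4 other settings. Tlr1, Tlr2, Tlr4 and Tlr13 stay above 0 in all 5, while Tlr6, Tlr9 and Unc93b1 reach 0 against vehicle 3 alone and Tlr7 changes sign.

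The wider receptor pathway was described by lists, each set against the median of 0.52 and the 22.6% of separated genes over all tested genes. No gene of these lists passed limma over all genes as deposited. Of 5 tested surface co-receptors, 2 were separated upward and none downward (median log2 difference 0.86). Ly96, the MD-2 protein that holds lipopolysaccharide on Tlr4, was at 8.61, 4.31 and 9.14 TPM with vehicle, compared with 13.9, 16.8 and 14.8 TPM with 25-HC. The Ly96 groups were apart before and after rescaling and after length correction, but they overlapped after quantile normalization. Cd14, which hands lipopolysaccharide to Ly96 and Tlr4, is named here after its values were seen. It was at 560, 354 and 548 TPM across the vehicle libraries, against 362, 375 and 366 TPM across the treated ones, with overlap as deposited and with each treated library below each vehicle library after rescaling. Lbp was listed at 0 in all 6.

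Folding and trafficking helpers had 5 of 9 genes separated upward (median 1.42), or 6 up and 1 down after rescaling. Hsp90b1, the chaperone gp96 needed for folding of most Toll-like receptors, was at 47.3, 15.1 and 61.0 TPM with vehicle, compared with 101, 104 and 99.7 TPM with 25-HC. Its treated values were close together and above vehicle 3. Genes of endosomal proteolysis and ligand processing had 7 of 10 separated upward, or 4 after rescaling, with a median of 0.62. Ctsb, a cathepsin, was at 1205, 421 and 1317 TPM across the vehicle libraries, against 2040.0, 2129 and 2061 TPM across the treated ones. Rnaset2a and Rnaset2b of this list are near-identical copies whose separate values are uncertain.

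Endolysosomal transporters had 2 of 4 tested genes separated upward (median 0.55), and 2 upward and 1 downward after rescaling. Slc15a4, a transporter that Tlr7 and Tlr9 signalling depends on, was at 12.6, 3.31 and 21.9 TPM with vehicle, compared with 23.8, 45.5 and 28.0 TPM with 25-HC. TIR adaptors and proximal signalling genes had 4 of 12 separated upward, before and after rescaling, with a median of 1.11. Against vehicle 3 alone, the median of this list was -0.16. Irak3, an inhibitor of receptor signalling in macrophages, was at 3.46, 0.96 and 6.23 TPM across the vehicle libraries, against 15.1, 14.95 and 15.2 TPM across the treated ones, each treated library above vehicle 3 (log2 difference 2.01, SE 0.50, limma adjusted p = 0.389). Irak3 passed limma after length correction (adjusted p = 0.0451, beside 0.144% of all genes with a length upward), without vehicle 3 (0.0482) and against vehicle 3 alone (0.0174). Transcription factors acting below the receptors had 3 of 6 separated upward (median 0.59) and 1 after rescaling. Irf7, which induces interferon genes downstream of Tlr7 and Tlr9, read 9.47, 11.7 and 8.53 TPM against 28.8, 25.8 and 25.9 TPM under treatment, apart as deposited and overlapping after rescaling. It had the smallest unadjusted limma p of that list (0.00147, adjusted p = 0.389), and passed limma without vehicle 3 (adjusted p = 0.049) and against vehicle 3 alone (0.0175). Against vehicle 3 alone the log2 difference was 0.73 for Hsp90b1, 0.66 for Ctsb and -0.58 for Cd14, beside a median of -0.071 over all tested genes. Medians of the other lists against vehicle 3 alone were -0.23 for co-receptors, 0.25 for folding and trafficking helpers and 0.31 for proteolysis and ligand processing. They were 0.28 for transporters and 0.011 for transcription factors. Further genes of the lists differed in either direction in that comparison, among them Lgmn (0.59), Cd36 (-0.54) and Irf5 (-0.43).

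**Figure D5:**
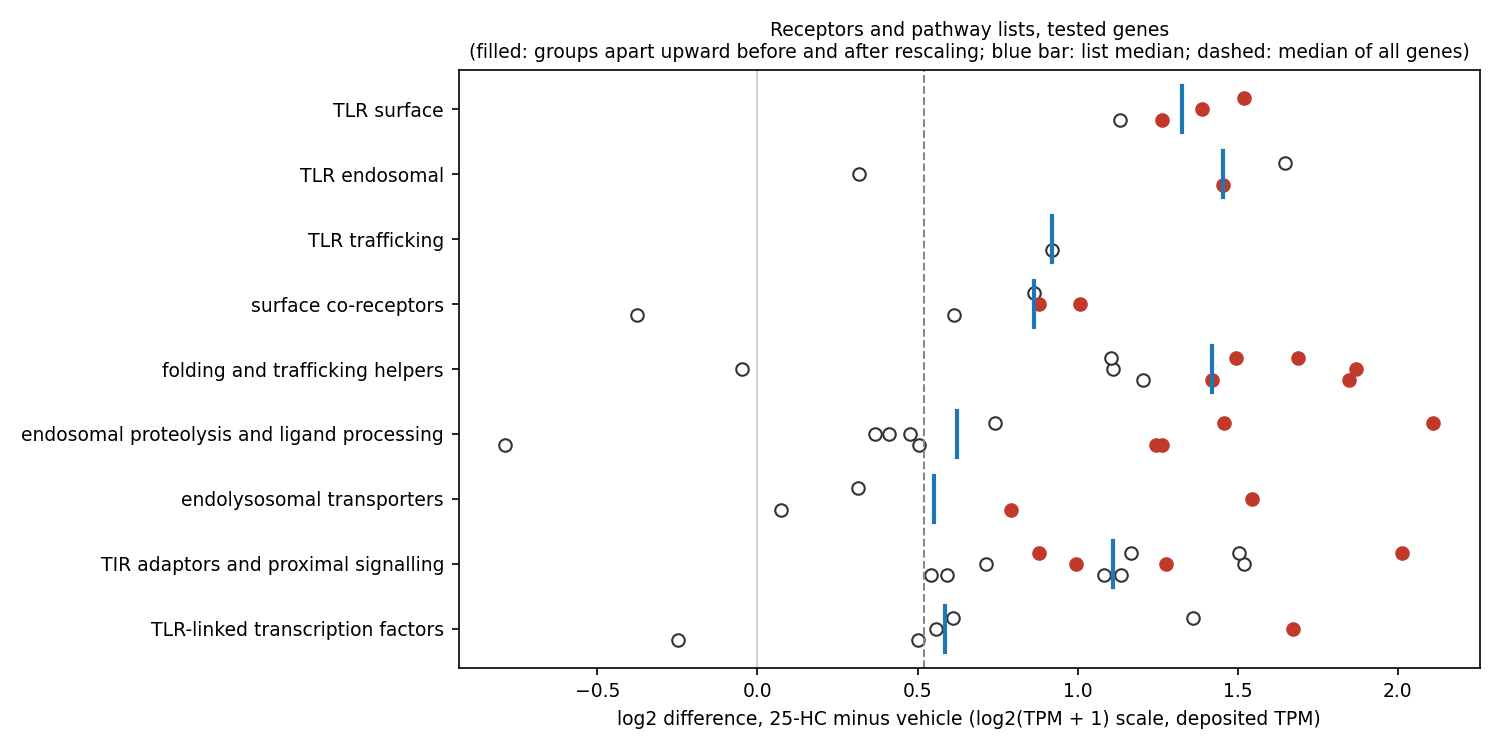
Log2 difference between 25-HC and vehicle (horizontal axis) of each tested gene in the receptor classes and 6 pathway lists (rows), with the list median in blue and the median of all genes dashed at 0.52. Filled points, which are separated upward before and after rescaling, occur in each row except Unc93b1, which is apart only after rescaling.

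Markers of cell identity were read beside these values. The 8 macrophage markers summed to 1381 to 2043 TPM with vehicle, compared with 2167 to 2185 TPM with 25-HC. Most of each sum was Cd68 and Lyz2. Of the 7 tested markers, 4 were separated upward and 1 downward, or 2 upward and 1 downward after rescaling. Their median log2 difference was 0.70 as deposited and 0.065 after rescaling, and Mertk was listed at 0 in all 6. Plasmacytoid dendritic cell markers summed to 238 to 372 TPM and 465 to 469 TPM, nearly all of it Bst2, with Siglech at 0.06 to 0.09 and 0.29 to 0.81 TPM and Ccr9 listed at 0. Markers of B cells, T cells, conventional dendritic cells, neutrophils, fibroblasts and epithelial cells summed to at most 2.50 TPM per list in any library. The part of these markers in the receptor differences was not tested.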

How the data were processed

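The submitters' processing notes name RSEM, StringTie and HISAT2 and the build GRCm39. Their versions, order, annotation and strandedness: not given in the sources used here. For 6 libraries the authors deposited TPM per gene, and 11 empty columns were ignored. TPM keeps no counts, so no counting error can be given, and a few abundant genes lower all others. Libraries were made, per the labels' protocols, with a TruSeq RNA kit.

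Groups and replicate numbers came from titles. The 12092 genes averaging 1 TPM or more entered limma 3.58.1 (R 4.3.3) as log2(TPM + 1) (variance trend, two-sided, Benjamini-Hochberg, threshold 0.05, no block). A check on simulated data was also run, and no statement here rests on it. It is not used to say which changes limma could find amid the uneven vehicle libraries. Library ratios used exact permutation tests, with a smallest p of 0.1. Alternatives were pseudocounts 0.1 and 5, no filter (genes above 0 in any library), median-ratio rescaling, quantile normalization, a replicate block, each library left out, vehicle 3 alone, and a loess trend on length (span 0.75, degree 2). Lengths were the longest GENCODE M21 transcripts, matched for 92.1% of tested genes. Its build differs from that of the expression table, so no coordinates were joined to that table. Gene bounds of GENCODE M21 and RefSeq were used to limit the upstream sequences shown. The genes and lists were chosen with earlier results of these data known. Named genes were the 10, the smallest p per pathway list and the 3 genes nearest Unc93b1. Cd14, Spi1, Cd68, Lbp, Lgmn, Cd36, Irf5 and single cell markers were named after their values were seen. Python 3.11.15 was used.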

Additional observations from a re-analysis of the deposited data

How the results depend on the processing

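Tlr1, Tlr2, Tlr4 and Tlr13 remained separated upward after median-ratio rescaling, quantile normalization and length correction, the settings that could reorder libraries. Leaving out a library can only keep or raise the number separated, which was 4 as deposited and then 4 to 7 (7 without vehicle 3). None was separated downward in any setting. The limma count over all genes was 1 as deposited. It was 0 with a pseudocount of 5, 0 without the filter, 2 after median-ratio rescaling, 5 after quantile normalization, 19 after length correction, 1312 against vehicle 3 alone and 0 to 722 when 1 library was left out (722 without vehicle 3). Of the 10 genes 0 were called as deposited, 3 against vehicle 3 alone (Tlr2, Tlr4, Tlr13) and 0 to 3 when 1 library was left out (without vehicle 3: Tlr4, Tlr9 and Tlr13, adjusted p = 0.0468, 0.0476 and 0.0479 by limma). With the replicate block limma called 0 genes. Same-numbered libraries had deviations correlated at -0.013, 0.056 and 0.030. The vehicle libraries were too uneven for these values to decide whether the numbers pair the libraries. Log2 differences changed sign for Tlr6 (-0.084), Tlr9 (-0.0056) and Unc93b1 (-0.0023) against vehicle 3 alone, and for Tlr7 after rescaling (-0.19), quantile normalization (-0.36) and length correction (-0.36). The log2 ratio of Unc93b1 to endosomal receptors turned from -0.46 to 0.035 after length correction and 0.18 with averaged log2 values, and ranged from -0.52 to -0.34 when 1 library was left out. The log2 ratio of endosomal to surface receptors, -0.086, ranged from -0.19 to -0.0043 when 1 library was left out. The causes were not tested. Depth is unknown, so the precision of low values such as Tlr3 cannot be stated.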
